A study of Mus musculus with 41 samples.

Results

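The insulin-like growth factor (IGF) system was followed in mouse mammary tumors through 10 genes chosen by symbol out of the 47480 symbols measured. These were the ligand genes Igf1 and Igf2, the receptor genes Igf1r and Igf2r, the binding protein genes Igfbp2, Igfbp3, Igfbp4, Igfbp5 and Igfbp7, and H19, the noncoding RNA gene beside Igf2. RNA had been sequenced from 41 untreated tumors grown in the mammary fat pads of wild-type Balb/c hosts, with 1 library per tumor. The 28 tumors called PLK2null here lacked both Plk2 and p53 (Plk2-/-; p53-/-), and the 13 tumors called p53null lacked p53 alone (p53-/-), so by their labels all 41 shared the loss of p53 and the Balb/c strain. The study describes its p53-/- tumors as a transplantable bank. Its Plk2-/-; p53-/- tumors arose from transplanted mammary epithelial cells and were frozen for later implantation. The labels do not say which libraries came from a first growth or a later transplant, or which tumors descend from the same original growth. The age of the animals was not given in the labels. The titles of all 13 p53null libraries carry the word ROSEN and those of the PLK2null libraries do not, so that a difference in library origin and the difference in genotype cannot be told apart.

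IGF-I and IGF-II are secreted growth factors that act through the IGF-I receptor, a tyrosine kinase that drives growth and survival. IGF-II is also taken up and degraded through the product of Igf2r, which does not signal as a kinase. The binding proteins hold IGFs in the extracellular space and can either limit or prolong their action, while the product of Igfbp7 binds IGFs only weakly. Igf2 and H19 lie side by side in an imprinted region, where Igf2 is usually read from the paternal copy and H19 from the maternal copy under the control of shared enhancers. In the mammary gland, IGF-I supports the growth of ducts and Igfbp5 rises during involution.

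Values are read estimates per gene to which the authors applied upper-quartile scaling, with 1000 as the upper quartile of each tumor over genes above 0, and they are called normalised values below. By the step between low values, 1 read was worth 0.388 to 0.817 in these units, and the libraries held an implied 29409609 to 70868124 fragments on genes, with a median of 39053966 in PLK2null and 58042777 in p53null tumors. All 10 genes were above 0 in all 41 tumors, and only Igf2, in 1 tumor, lay at or under 3 reads, a floor that covers counting error only. Plk2 itself ran from 36.6 to 553 with a median of 284 in PLK2null tumors and from 186 to 8028 with a median of 3402 in p53null tumors, so the groups differed in their medians and overlapped, with the lowest p53null value below the PLK2null median. The transcript of Trp53, the gene of p53, ran from 1563 to 3914 (median, 2597) in PLK2null and from 349 to 5035 (median, 1818) in p53null tumors, so the transcript level does not show the labelled loss of p53. No libraries were alike to within counting noise, since the closest of all pairs, PLK2null-1985 and PLK2null-1986, had a mean chi-square of 86.1 per gene where 1 is expected.

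Per kilobase of merged exon, the median level over 41 tumors was highest for Igfbp5 (6916), followed by Igfbp7 (4952), Igfbp3 (2323), H19 (2131), Igfbp4 (1457), Igfbp2 (781), Igf2r (718), Igf1r (139), Igf2 (60.1) and Igf1 (15.5). The transcripts of the binding proteins were thus more abundant, at the median, than those of both ligands. Neighbours in this order mostly overlapped: Igfbp5 was above Igfbp7 in 25 of 41 tumors, H19 above Igfbp4 in 22 and Igfbp2 above Igf2r in 22. The exception was Igf2r over Igf1r, which held in 41 of 41 tumors.

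Over all 41 tumors, the ligands and H19 differed far more than the receptors. The standard deviation of the log2 values of Igf2 over the 41 tumors was 4.23, the rank of 9 from the highest among the 17208 genes with a mean of at least 10, for which the median standard deviation was 0.76. H19 followed with 2.93, Igfbp2 with 2.47, Igf1 with 1.75 and Igfbp5 with 1.54. Igfbp3, Igfbp7, Igfbp4 and Igf1r lay between 0.92 and 1.25, and Igf2r, at 0.58, varied less than the median gene. Igf2r was therefore the steadiest of the 10 transcripts and Igf2 the least steady.

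**Figure D1:**
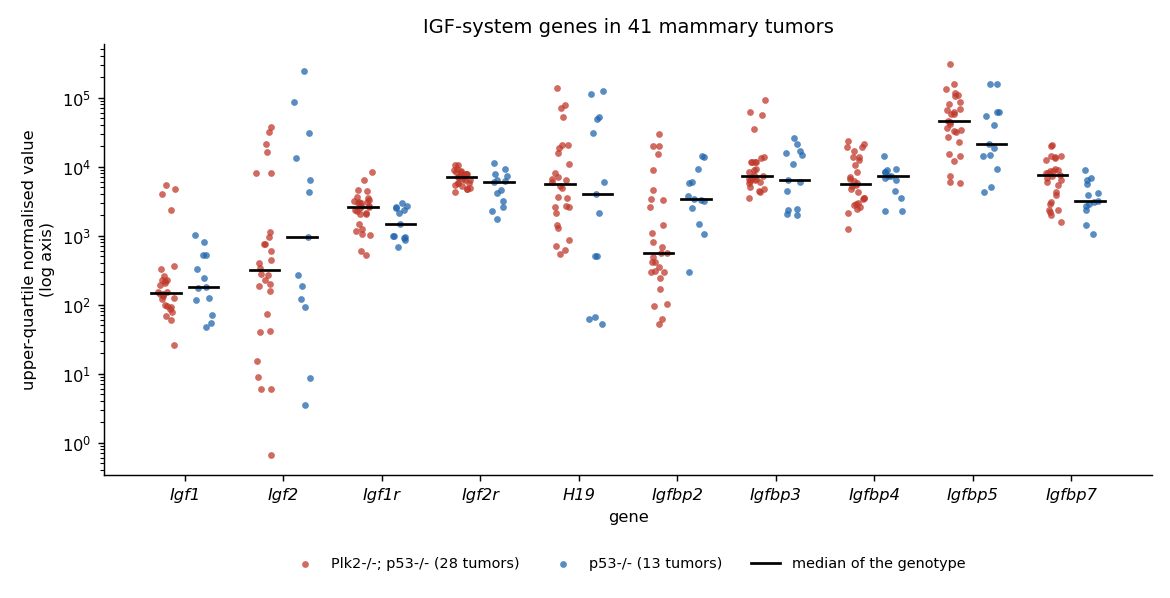
Each point is the normalised value (log axis) of 1 gene in 1 tumor, red for the 28 Plk2-/-; p53-/- tumors and blue for the 13 p53-/- tumors, and black lines are the medians of each genotype. Igf2 spans from 0.65 to 245176, while Igf2r stays between 1761 and 11454.

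Igf2 (mm10 chr7:142650766-142666816, minus strand) encodes IGF-II. In the 28 PLK2null tumors its normalised value was 0.65 at the lowest, 313 at the median and 36938 at the highest. In the 13 p53null tumors it was 3.51 at the lowest, 970.3 at the median and 245176 at the highest. The ranges overlapped over most of their length, and 4 tumors of each genotype were above 10000. The fold change of PLK2null over p53null tumors was -1.73 on the log2 scale (SE 1.38, limma adjusted p = 0.331), within the spread between tumors. Without p53null-2153L, the tumor with the highest value, it was -1.09 (limma adjusted p = 0.563). With the 7 PLK2null tumors numbered 77xx alone it was -0.07 (limma adjusted p = 0.989), and without PLK2null-732, PLK2null-733, PLK2null-743 and p53null-T11 it was -2.71 (limma adjusted p = 0.104).

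In p53null-2153L the Igf2 value of 245176 was followed at a distance by 85958 in p53null-10152, 36938 in PLK2null-733, 31281 in PLK2null-743 and 30253 in p53null-10151. At the other end, PLK2null-1986 held 0.65, which is about 1 read, and p53null-2208L held 3.51. Values under 10 were found in 6 tumors. Igf2 was thus among the most abundant transcripts of some tumors and close to the limit of detection in others of the same genotype.

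The deposited values are sums over all transcripts of a gene, so they do not say which start site of Igf2 was in use. RefSeq gives Igf2 4 start windows in GRCm38.p6, and the 250 bases before the most upstream and the most downstream start are shown here because they differ in base composition and in the GC box, with GGGCGG or CCGCCC in capitals. The upstream window, chr7:142666817-142667066 (minus strand, just before the annotated gene), has no GC box and is 50.8% G or C. The downstream window, chr7:142657497-142657746 (minus strand, inside the gene and outside its annotated exons), has 2 GC boxes and is 66.0% G or C. Among all 32851 mouse windows of this length, 32.7% hold at least 1 GC box on either strand.
Igf2 upstream start: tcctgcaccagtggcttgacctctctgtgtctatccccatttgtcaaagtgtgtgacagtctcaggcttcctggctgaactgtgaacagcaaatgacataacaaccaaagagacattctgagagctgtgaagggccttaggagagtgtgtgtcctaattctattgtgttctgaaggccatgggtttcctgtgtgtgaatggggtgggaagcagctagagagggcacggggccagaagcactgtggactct
Igf2 downstream start: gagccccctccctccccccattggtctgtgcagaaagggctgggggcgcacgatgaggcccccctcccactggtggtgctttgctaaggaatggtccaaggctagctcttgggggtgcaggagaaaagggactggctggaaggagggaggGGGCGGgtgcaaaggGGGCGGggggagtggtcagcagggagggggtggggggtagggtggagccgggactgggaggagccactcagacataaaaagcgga

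H19 (chr7:142575529-142578143, minus strand) gives a long noncoding RNA and lies 72623 bases from Igf2, in the direction in which Igf2 is read. Its normalised value in PLK2null tumors was 538 at the lowest, 5638 at the median and 138288 at the highest. Among p53null tumors it was 53.1 at the lowest, 3986 at the median and 123216 at the highest. The values of 5 p53null tumors, from 53.1 to 514, lay below every PLK2null tumor, and the upper parts of the ranges overlapped. The log2 fold change was 0.89 (SE 0.96, limma adjusted p = 0.489), again within the spread. It depended on single tumors, from 0.40 without p53null-2396R (limma adjusted p = 0.770) to 1.33 without p53null-10151 (limma adjusted p = 0.284), and it was similarly low without p53null-T11 or p53null-2331L and similarly high without p53null-10152. With the 77xx tumors alone it was 1.77 (limma adjusted p = 0.516).

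Igf2 and H19 did not simply rise together. H19 exceeded Igf2 per kilobase of exon in 35 of 41 tumors. The 6 tumors in which Igf2 exceeded H19 were PLK2null-732, PLK2null-733, PLK2null-743, p53null-2396R, p53null-2153L and p53null-T11. The ratio of Igf2 to H19 per kilobase was 209 in p53null-2153L and 107 in p53null-2396R, against 4.92 to 7.43 in the 3 PLK2null tumors and 1.30 in p53null-T11. At the opposite extreme it was 4.97e-05 in p53null-2208L, where H19 stood at 30311 and Igf2 at 3.51.

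Counted by a level of 10000 for both genes, 3 tumors were above it for both, 5 for Igf2 alone, 11 for H19 alone and 22 for neither. The 3 tumors with both were PLK2null-7749 (Igf2 21491, H19 138288), p53null-10151 (Igf2 30253, H19 123216) and p53null-10152 (Igf2 85958, H19 114152). In p53null-2153L, H19 was 505, and in p53null-2396R an Igf2 value of 13221 stood beside an H19 value of 53.1, the lowest of all 41 tumors. High Igf2 was therefore seen both with very high and with very low H19.

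Over the 41 tumors, the Spearman correlation of Igf2 and H19 was 0.34 and the Pearson correlation of their log2 values 0.29. It was 0.42 (Spearman) within the PLK2null tumors and 0.26 within the p53null tumors, or 0.46 in the 12 p53null tumors other than p53null-2153L. Over both genotypes, leaving out p53null-2153L gave 0.43, and leaving out the 2 tumors farthest from the median of Igf2, p53null-10152 and p53null-2153L, gave 0.39. These are descriptions, since tumors may share an origin, and the library titles differ with genotype.

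**Figure D2:**
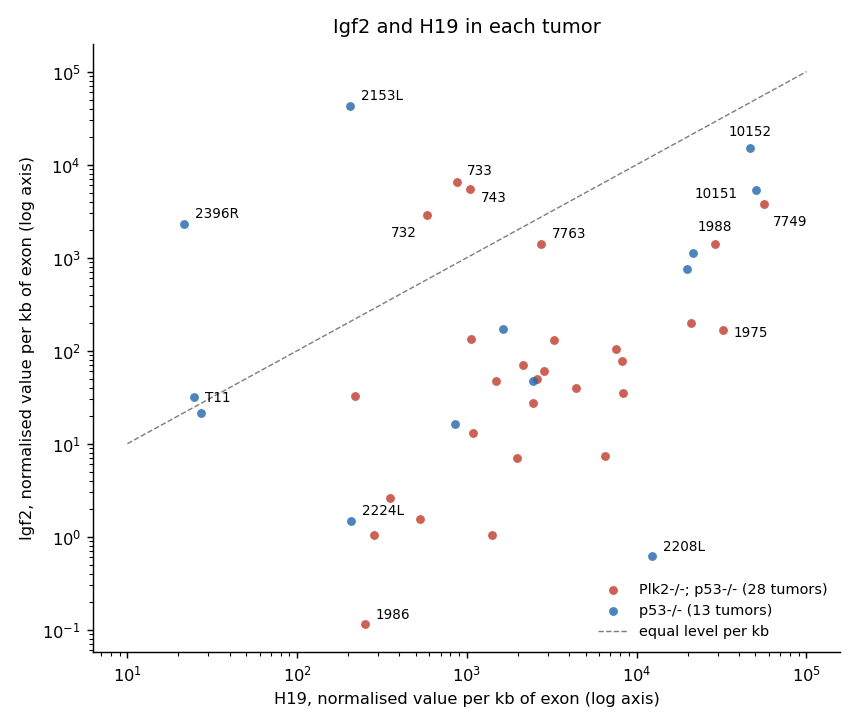
Each point is 1 tumor, placed by the normalised value per kilobase of exon of H19 and of Igf2 (both axes log), red for Plk2-/-; p53-/- and blue for p53-/-, with the dashed line marking equal levels. The 6 tumors above the line include p53null-2153L and p53null-2396R, which have far more Igf2 than H19, while p53null-2208L and PLK2null-1986 lie far below it.

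Each of these genes holds a microRNA, miR-483 in Igf2 and miR-675 in H19. Their own gene rows, Mir483 and Mir675, were listed at 0 in all 41 tumors, and mRNA libraries of this kind do not capture mature microRNAs. Their mature sequences from RefSeq (GRCm38.p6, chromosome 7, minus strand) are given with the seed, bases 2 to 8, in capitals, because no seed is shared among the 4 and a host level cannot stand for a mature level.
miR-483-5p: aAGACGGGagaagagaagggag
miR-483-3p: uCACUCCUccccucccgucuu
miR-675-5p: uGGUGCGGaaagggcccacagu
miR-675-3p: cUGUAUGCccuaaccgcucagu

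Beside Igf2, p53null-2153L was the highest of 41 tumors for other genes of the region. Of 29 further genes with a mean of at least 10 within 1000000 bases of Igf2, it ranked first for 10 and lay above the median of the 41 tumors for 15. Tnnt3 (4234 against a median of 7.13) and Tnni2 (2535 against 27.6), which encode troponins of fast skeletal muscle, were the 2 with the widest gap. Nap1l4, a histone chaperone gene, was at 11618 against a median of 3426, and Cd81, a tetraspanin gene, at 21887 against 8709.6. Other neighbours went the other way: Kcnq1, a potassium channel gene, was at 45.7 against 275 and Cdkn1c, an imprinted gene for a cell cycle inhibitor, at 37.2 against 165. Tollip, Mob2, Dusp8, R74862, Tssc4 and Cars were the other neighbours for which it ranked first. The high values around Igf2 in this tumor were thus interleaved with ordinary and low values. The share of all tested genes for which this tumor ranked first was not counted, so the 10 of 29 have no background beside them.

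**Figure D3:**
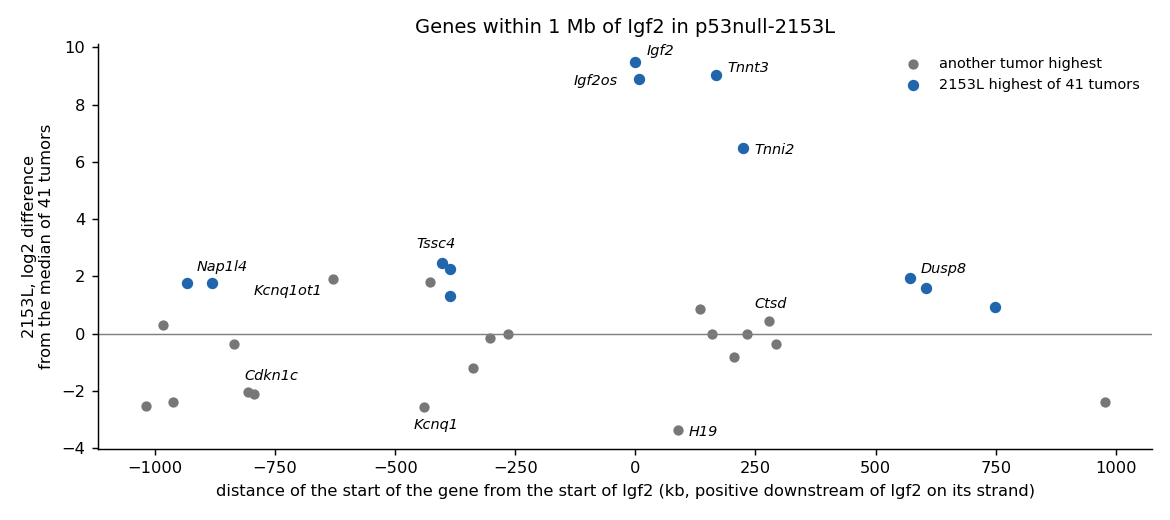
Points are the genes within 1 Mb of Igf2, placed by the distance of their start from that of Igf2 (kb) and by the log2 difference between p53null-2153L and the median of 41 tumors, blue where p53null-2153L is the highest tumor. Igf2, Igf2os, Tnnt3 and Tnni2 stand 6.47 to 9.47 above the median, H19 stands at -3.37, and other genes lie between.

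The same tumor was the highest of 41 in 5 of 6 skeletal muscle genes. Their summed value was 37146 there, 25624 in p53null-7435 and 2929 in PLK2null-7764, and the median over p53null tumors was 90.2. Myog, a regulator of early muscle cells, was at 0.70, about 1 read. In p53null-7435, where the muscle genes summed to 25624, Igf2 was 970.3 and H19 3986. In PLK2null-7764 Igf2 was 440 and H19 20254. In bulk tumor RNA, more cells of a type and more RNA per cell cannot be told apart, and the part of muscle RNA in the Igf2 value of p53null-2153L was not tested.

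The genes most like Igf2 in rank over the 41 tumors, among 17208 and without predicted genes, were Igf2os (Spearman 0.93), Igfbp4 (0.68), Tgds (0.64), Ubac2 (0.64) and Trpm5 (0.63). Igf2os overlaps Igf2 on the opposite strand, and since the use of strand in counting is not given in the sources used here, reads from the shared stretch cannot be told apart. It was at 2859.9 in p53null-2153L, at 309 in PLK2null-743 as the next highest, and at 5.04 at the median. For H19 the most alike were Fam179a (0.69), Clec2f (0.68), Igfbp5 (0.66), Cpsf4l (0.61) and Prtn3 (0.59). A member of the binding protein family thus stood in each of these lists of 5, Igfbp4 for Igf2 and Igfbp5 for H19.

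Igf2 also differed between some tumors that were close over the rest of the transcriptome. PLK2null-7750 and PLK2null-1986 correlated at 0.80 over the 2000 most variable genes, centred on each gene's median, yet Igf2 was 397 in the former and 0.65 in the latter, and H19 5242 and 615. PLK2null-7749 and PLK2null-1975, at 0.73, had Igf2 values of 21491 and 952 and H19 values of 138288 and 78979.8. PLK2null-1988 and PLK2null-1989, at 0.77, had Igf2 values of 8069 and 227 and H19 values of 71374 and 10818. By contrast PLK2null-732 and PLK2null-733, at 0.96, had similar values of Igf2 (16385 and 36938) and H19 (1431 and 2136). PLK2null-1985 and PLK2null-1986, at 0.91, were both low in Igf2 (6.03 and 0.65) and had H19 values of 698 and 615. PLK2null-1977 and PLK2null-1980, at 0.69, had Igf2 values of 8.79 and 6.03 and H19 values of 1300 and 3468. Both genes were higher in the same tumor in each of these pairs but the last.

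Igf1 (chr10:87858265-87937042, plus strand) encodes IGF-I, which is made mostly by stromal cells in the mammary gland. Its value was 26.3 at the lowest, 149 at the median and 5356 at the highest in PLK2null tumors. In p53null tumors it was 47.4 at the lowest, 183 at the median and 1034 at the highest. The 4 highest tumors were PLK2null-743 (5356), PLK2null-733 (4812), PLK2null-732 (3963) and PLK2null-7763 (2316), and the next PLK2null tumor had 362. The log2 fold change was 0.05 (SE 0.58, limma adjusted p = 0.954) and turned to -0.64 (limma adjusted p = 0.160) without these 4 tumors, so no difference between genotypes was detectable.

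The study's text names PLK2null-743 as claudin-low, a subtype poor in cell junction and epithelial genes. PLK2null-733 and PLK2null-732 are described with it because they were its closest tumors, at correlations of 0.95 and 0.94 over the 2000 most variable genes. Their 3 Igf1 values, 3963 to 5356, lay above all other 38 tumors. Their Igf2 values were 16385 to 36938, and 1 of the other 25 PLK2null tumors, PLK2null-7749, exceeded the lowest of them. For Igfbp3, at 34629 to 91428, this was 1 of the 25, PLK2null-7763 with 62224. For Igfbp4, at 16876 to 23246, it was 2 of the 25, PLK2null-1975 and PLK2null-1974, and for Igfbp7, at 13566 to 20574, it was also 2. These 5 genes were thus high together in the same 3 tumors.

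The other members were not raised there. Igf1r was 2052 to 2699 in these 3 tumors against a median of 2673 in the other 25, and Igf2r was 4797 to 5879.9 against 7278. H19 was 1431 to 2566 against 6405, Igfbp2 301 to 1094 against 568 and Igfbp5 22803 to 44868 against 57157. In p53null-T11, which the study also calls claudin-low, Igf1 was 241, Igf2 184, Igfbp3 14545, Igfbp4 4400 and Igfbp7 2698, far from the 3 PLK2null tumors. No test was made, because the labels give no subtype.

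The 3 tumors also held far more RNA of vessels and red blood cells than the rest. Their sums of B cell and T cell genes were above most. The sum of adipocyte genes was also high, but Fabp4 made up nearly all of it. The summed value of the 6 endothelial genes (Pecam1, Cdh5, Kdr, Tie1, Emcn and Esam) was 165585 to 186496 there, 78025 in PLK2null-7763, and 2572 at the lowest and 4877 at the median of the other 25 PLK2null tumors. In the p53null tumors it was 2041 to 16463. All 6 endothelial genes, 4 of 5 pericyte genes and 5 of 5 red blood cell genes were higher in each of the 3 than in every one of the other 37 tumors beside PLK2null-7763. The 6 adipocyte genes summed to 99138 to 124750 in the 3, of which Fabp4, also known from endothelium, reached 124638. In the other 25 the median sum was 677 and the highest 52211. Of the 6 adipocyte genes, only 1 was higher in each of the 3 than in every one of those 37 tumors. Over all PLK2null tumors, Adipoq reached 249 and Cfd 2385. B cell genes summed to 661 to 887 against a median of 24.7, and T cell genes to 486 to 1119 against 53.2, but the highest sums of the other 25 were 4616 and 1172. The luminal epithelial genes summed to 55.9 to 309 in the 3 and to 17453 or more in the other PLK2null tumors, and the basal ones to 11.9 to 160 against a median of 5471. Epithelial genes, which define a mammary carcinoma, were thus nearly absent in these 3. The part of vessel, blood, adipocyte and lymphocyte RNA in their Igf1, Igf2, Igfbp3, Igfbp4 and Igfbp7 values was not tested.

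**Figure D4:**
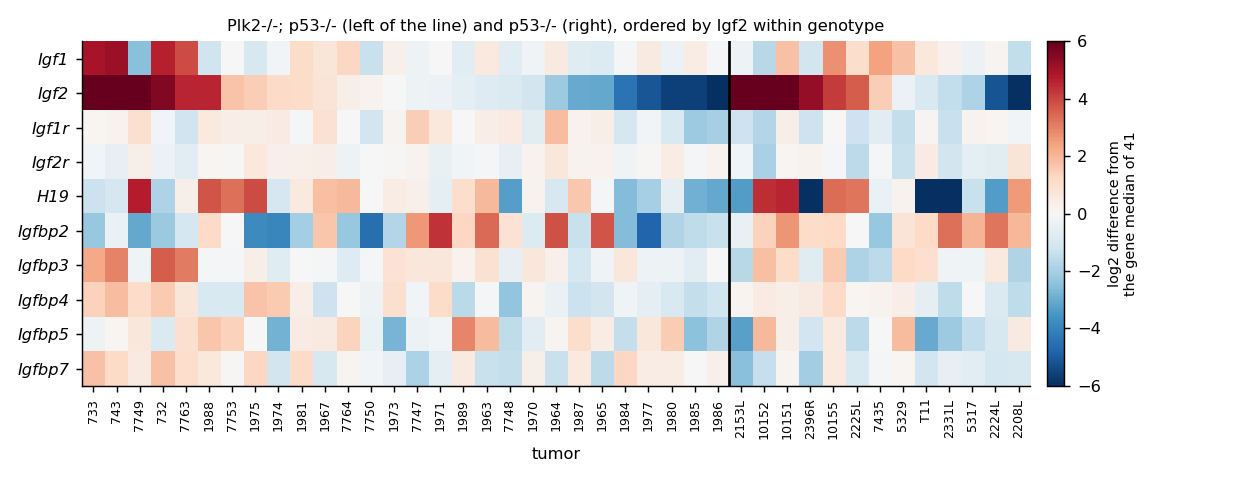
Rows are the 10 genes and columns the 41 tumors, ordered by Igf2 within genotype, and colour gives the log2 difference from the gene's median over 41 tumors, capped at 6 in both directions. PLK2null-732, PLK2null-733, PLK2null-743 and PLK2null-7763 stand out in Igf1 and Igfbp3, and p53null-2153L combines high Igf2 with low H19, Igfbp5 and Igfbp7.

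The genes most like Igf1 in rank were Slc9a9 (Spearman 0.80), Abca9 (0.79), Rasip1 (0.78), Nxpe5 (0.77) and Pf4 (0.76). Without the 4 tumors highest in endothelial genes these values fell to between 0.68 and 0.75. Rasip1, which is known for its role in vessel formation, was at 9409 to 10841 in PLK2null-732, PLK2null-733 and PLK2null-743 and at 222 at the median of all 41. Among the members, Igf1 and Igfbp3 correlated at 0.42 over 41 tumors and at 0.21 over 37 tumors without these 4. Igf2 and Igfbp4 gave 0.62 in place of 0.68, and H19 and Igfbp5 0.65 in place of 0.66.

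Igf1r (chr7:67952827-68233668, plus strand) encodes the signalling receptor. In PLK2null tumors its value was 520 at the lowest, 2633 at the median and 8363 at the highest. The p53null tumors had 692 at the lowest, 1493 at the median and 2945 at the highest. The p53null range lay inside the PLK2null range, and the highest values, 8363 in PLK2null-1964 and 6375 in PLK2null-7747, were in PLK2null tumors. The log2 fold change of 0.64 (SE 0.29, limma adjusted p = 0.0764) missed the threshold of 0.05. It reached the threshold without PLK2null-1985 (0.72, limma adjusted p = 0.0327) or without PLK2null-1986 (0.71, limma adjusted p = 0.0371). In all 11 other settings it missed the threshold, among them TMM rescaling (0.47, limma adjusted p = 0.186). With the 77xx tumors alone it was 0.77 (limma adjusted p = 0.192), and without p53null-2153L 0.59 (limma adjusted p = 0.122). With 1 tumor left out the highest limma adjusted p was 0.148.

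Igf2r (chr17:12682406-12769664, minus strand) encodes the receptor that clears IGF-II. Its value was 4350.5 at the lowest, 7058 at the median and 10639 at the highest in PLK2null tumors. In p53null tumors it was 1761 at the lowest, 6008 at the median and 11454 at the highest. The p53null range enclosed the PLK2null range. Igf2r was higher in PLK2null tumors by 0.49 on the log2 scale (SE 0.18, limma adjusted p = 0.0287). The call was lost under rescaling by TMM (0.33, limma adjusted p = 0.176) and with the 77xx tumors alone (0.34, limma adjusted p = 0.526). It was also lost without p53null-2225L, p53null-2331L, p53null-10152 or p53null-5329, where the fold change was 0.37 to 0.44 and limma adjusted p = 0.0588 to 0.0847.

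Igfbp2 (chr1:72824503-72852474, plus strand) and Igfbp5 (chr1:72857932-72874884, minus strand) are neighbours, 5458 bases apart. Igfbp2 was 52.7 at the lowest, 568 at the median and 29267 at the highest in PLK2null tumors. The p53null tumors held 300.1 at the lowest, 3349.7 at the median and 14185 at the highest. The ranges overlapped, and the PLK2null tumors had both the lowest and the highest values, with 29267 in PLK2null-1971 and 20215 in PLK2null-1964. Igfbp2 was lower in PLK2null tumors by -1.91 on the log2 scale (SE 0.76, limma adjusted p = 0.0426). This call rested on the set of tumors, since leaving out any of 23 of the 41 tumors in turn brought it above the threshold (highest limma adjusted p = 0.0765). The call was also lost with no filter on low values (limma adjusted p = 0.0597), with the 77xx tumors alone (-2.31, limma adjusted p = 0.0645), without PLK2null-732, PLK2null-733, PLK2null-743 and p53null-T11 (-1.80, limma adjusted p = 0.0767) and without the 4 tumors highest in endothelial genes (-1.78, limma adjusted p = 0.0763).

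Igfbp5 was 5739.7 at the lowest, 45734 at the median and 311537 at the highest in PLK2null tumors, and PLK2null-1989 held the highest value. Its p53null values were 4289.5 at the lowest, 21232 at the median and 157902 at the highest. The groups overlapped, and the log2 fold change was 0.65 (SE 0.50, limma adjusted p = 0.311). The lowest p53null value was that of p53null-2153L, without which the fold change was 0.44 (limma adjusted p = 0.524). Despite lying side by side, Igfbp2 and Igfbp5 were not among each other's closest pairs in rank, since the strongest pairs among the 10 members were Igf2 with Igfbp4 and H19 with Igfbp5.

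Igfbp3 (chr11:7206086-7213923, minus strand) encodes the main IGF carrier of serum. In PLK2null tumors its value was 3499 at the lowest, 7364 at the median and 91428 at the highest. In p53null tumors it was 2016 at the lowest, 6332 at the median and 25682 at the highest. The groups overlapped apart from the 4 tumors named with Igf1, and the log2 fold change was 0.50 (SE 0.41, limma adjusted p = 0.352), or 0.07 without those 4 (limma adjusted p = 0.875). Igfbp4 (chr11:99041244-99054392, plus strand), an inhibitor of IGF action that is cleaved by pappalysins, was 1244 at the lowest, 5637 at the median and 23246 at the highest in PLK2null tumors. The p53null tumors held 2246 at the lowest, 7247 at the median and 14269.8 at the highest. The PLK2null range enclosed the p53null range, with a log2 fold change of 0.01 (SE 0.35, limma adjusted p = 0.988).

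Igfbp7 (chr5:77349240-77408041, minus strand) encodes a secreted protein of vessel walls that binds IGFs weakly. In PLK2null tumors its value was 1596 at the lowest, 7477 at the median and 20574 at the highest. The p53null tumors had 1060.4 at the lowest, 3219.8 at the median and 9057 at the highest. The ranges overlapped, with 7 PLK2null and 0 p53null tumors above 10000. Igfbp7 was higher in PLK2null tumors by 0.89 on the log2 scale (SE 0.33, limma adjusted p = 0.0288). The call was lost without p53null-2153L (0.75, limma adjusted p = 0.0695), without p53null-2396R (0.78, limma adjusted p = 0.0618), without the 4 tumors highest in endothelial genes (0.66, limma adjusted p = 0.0855), under TMM (0.72, limma adjusted p = 0.0801) and with the 77xx tumors alone (0.56, limma adjusted p = 0.415). The genes most like Igfbp7 in rank were Csf2rb (Spearman 0.87), Pirb (0.86), Csf2rb2 (0.85), Pik3r6 (0.85) and Tnfrsf26 (0.84), of which Csf2rb, Csf2rb2 and Pirb encode receptors known from myeloid cells. The members with the most opposed ranks were Igfbp2 and Igfbp7, with a Spearman correlation of -0.54.

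Since Igfbp4 ranked with Igf2, and Igfbp7 passed the test, the 250 bases before their RefSeq starts (GRCm38.p6) are shown. The Igfbp4 window, chr11:99040994-99041243 (plus strand), is the only one of the 13 windows of 9 members with a TATA box, TATAAA or TTTATA, found in 12.4% of all windows. The Igfbp7 window, chr5:77408046-77408295 (minus strand), has 4 GC boxes, the most among the 13. Of the 13 windows, 6 hold a GC box. Capitals mark these motifs, which are letter matches and not measured sites. H19 was not in the table of start windows.
Igfbp4 start: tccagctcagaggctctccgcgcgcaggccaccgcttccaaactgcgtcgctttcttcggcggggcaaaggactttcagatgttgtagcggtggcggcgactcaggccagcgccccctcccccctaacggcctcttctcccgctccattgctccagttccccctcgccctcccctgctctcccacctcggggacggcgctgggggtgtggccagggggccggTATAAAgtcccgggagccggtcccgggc
Igfbp7 start: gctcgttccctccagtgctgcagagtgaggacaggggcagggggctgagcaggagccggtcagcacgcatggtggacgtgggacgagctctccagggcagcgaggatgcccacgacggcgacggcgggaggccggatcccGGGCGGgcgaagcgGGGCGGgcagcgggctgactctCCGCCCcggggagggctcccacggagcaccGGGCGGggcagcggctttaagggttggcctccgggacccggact

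In all, 3 of the 10 members passed the test between genotypes, where 39.5% of the 17208 genes tested did. The background was 24.3% higher and 15.3% lower in PLK2null tumors, against 2 members higher and 1 lower. Calls were thus no more frequent among the members than among all genes tested. The median log2 fold change of all genes was 0.10, and it moved to -0.07 under TMM, so that the split of all calls of 4175 higher and 2627 lower became 3068 higher and 3869 lower. With the 7 PLK2null tumors numbered 77xx against the 13 p53null tumors, 0 members and 2942 genes passed limma.

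**Figure D5:**
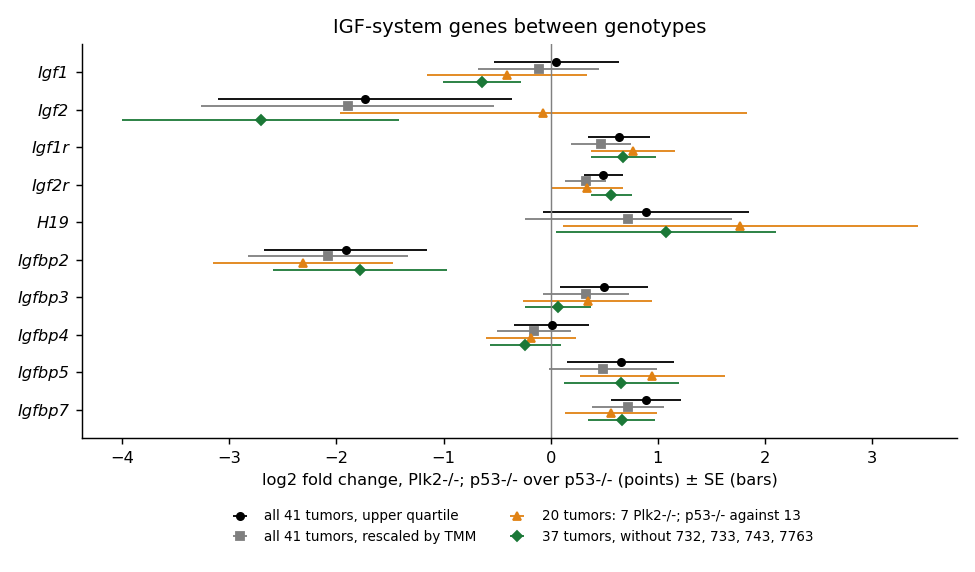
Points are the limma log2 fold changes of PLK2null over p53null tumors and bars are 1 SE, for all 41 tumors, after TMM rescaling, for 7 against 13 tumors and for 37 tumors without the 4 highest in endothelial genes. Igf2r, Igfbp2 and Igfbp7 keep their direction under all 4, and Igf1 and Igfbp4 cross 0.

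Other genes of the pathway were taken from 8 lists of 68 genes, of which 57 were tested. Of these, 14 were higher and 8 lower in PLK2null tumors and 35 did not pass, a share near the background of 39.5%. No list was tested as a set. Among other binding proteins and carriers, 1 of 2 tested genes passed. Igfbp6, whose product prefers IGF-II, was 7.88 to 368 (median, 55.9) in PLK2null and 58.8 to 4109.8 (median, 181) in p53null tumors, lower by -1.76 on the log2 scale (SE 0.45, limma adjusted p = 0.00161). With the 77xx tumors alone the Igfbp6 call was lost (-1.65, limma adjusted p = 0.0969). Igfals did not pass, and Igfbp1 was at 0 in 32 of 41 tumors.

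Of insulin-type ligands and receptors, 1 of 2 tested genes passed. Insr, the insulin receptor gene, was 2062 to 34273 (median, 3013) in PLK2null and 956 to 3109 (median, 1868) in p53null tumors, higher by 1.10 (SE 0.32, limma adjusted p = 0.00532). PLK2null-1963 (34273) and PLK2null-1964 (24148) were far above the rest. Ins1 was at 0 in 41 tumors and Ins2 in 40.

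Among the receptor adaptors 1 of 7 passed, Shc1, which links receptors to Ras. It was 2080.1 to 10402 (median, 4148) in PLK2null and 1259 to 6467 (median, 3044) in p53null tumors, higher by 0.45 (SE 0.18, limma adjusted p = 0.0442). This call was lost in 6 of 11 other settings, among them TMM (0.28, limma adjusted p = 0.202) and quantile normalization (0.42, limma adjusted p = 0.0588). Leaving out any of 21 of the 41 tumors in turn also lost it, with the highest limma adjusted p = 0.117 without p53null-2396R (0.34). The main adaptors did not pass: Irs1 ran from 53.8 to 1829 in PLK2null and from 79.8 to 2423 in p53null tumors, and Irs2 from 167 to 4982 and from 298 to 2486. In PLK2null-732, PLK2null-733 and PLK2null-743 both were low, at 53.8 to 99.5 for Irs1 and 167 to 280.1 for Irs2. Grb10, an imprinted gene for an adaptor that restrains insulin and IGF receptors, was at 19088 to 21837 in these 3 tumors against 948 at the median of all 41.

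Of the 6 genes for proteases of binding proteins and their inhibitors, Adam12 was higher and Htra1 lower. Adam12 was 247 to 4440 (median, 800.0) in PLK2null and 86.6 to 1777 (median, 280) in p53null tumors (log2 fold change 1.24, SE 0.42, limma adjusted p = 0.0156). Htra1 was 207 to 3536 (median, 774) in PLK2null and 359 to 5492 (median, 1617) in p53null tumors (-1.28, SE 0.36, limma adjusted p = 0.00454). With the 77xx tumors alone both calls were lost, Adam12 at 0.83 (limma adjusted p = 0.392) and Htra1 at -1.52 (limma adjusted p = 0.0551). Pappa, the main protease of Igfbp4, did not pass and ranged from 3.0 to 5148 in PLK2null tumors, with the highest value in PLK2null-1964. Pappa2 was at 2737 in p53null-10151 and 569 in p53null-10152, where PLK2null tumors reached 13.4.

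Of the Igf2 mRNA-binding and oncofetal genes, 0 of 5 passed limma. Igf2bp2 ran from 25.6 to 3943 in PLK2null tumors, and its 2 highest values were those of PLK2null-1974 (3943) and PLK2null-1975 (3880), of which Igf2 was 755 and 952. In p53null-2153L, Igf2bp1 was 4.22, Igf2bp2 110 and Igf2bp3 10.9. The highest Igf2 level was thus not accompanied by high levels of these binding protein genes.

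Among 6 regulators of the Igf2 and H19 region, Ctcf and Plagl2 were higher and Trim28 lower in PLK2null tumors. Of all genes tested, 24.3% were higher and 15.3% lower. Ctcf, whose product insulates Igf2 from the shared enhancers on the maternal copy, was 1721 to 3297 (median, 2157) in PLK2null and 1379 to 2119.9 (median, 1730) in p53null tumors, a log2 fold change of 0.38 (SE 0.08, limma adjusted p = 0.000390). Under TMM it was 0.21 (limma adjusted p = 0.0507), and with the 77xx tumors alone 0.32 (limma adjusted p = 0.0793). Plagl2, a zinc finger gene related to Plag1, changed by 0.42 (SE 0.15, limma adjusted p = 0.0269). It lost the call under TMM (0.26, limma adjusted p = 0.240), under quantile normalization and with the 77xx tumors alone (0.53, limma adjusted p = 0.133). The Plagl2 call was also lost without p53null-10152, p53null-T11 or p53null-2331L (limma adjusted p up to 0.0748). Trim28, a corepressor that keeps imprints, changed by -0.56 (SE 0.12, limma adjusted p = 0.000343), a call lost with the 77xx tumors alone (-0.51, limma adjusted p = 0.135). Plag1 itself, an activator of Igf2, reached 3122 in p53null-10151 and 673 in p53null-10155 and was 1.41 in p53null-2153L.

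Of 14 tested neighbours on chromosome 7, 2 were higher and 3 lower, beside 24.3% and 15.3% of all genes tested. Kcnq1ot1, the imprinted noncoding RNA of the adjoining region, was higher by 1.76 (SE 0.32, limma adjusted p = 2.94e-05), at 92.6 to 1204 (median, 306) in PLK2null and 24.5 to 986 (median, 95.1) in p53null tumors. It overlaps Kcnq1 on the other strand, so reads of the pair may be mixed. Tnfrsf23, a decoy receptor gene, was higher by 1.60 (SE 0.48, limma adjusted p = 0.00664). Slc22a18, a transporter gene, was lower by -1.70 (SE 0.59, limma adjusted p = 0.0197), and by -1.42 (limma adjusted p = 0.0525) without p53null-10152. The Tnfrsf23 and Slc22a18 calls were each lost in 1 of 11 other settings (limma adjusted p = 0.267 and 0.396). Mrpl23 and Ascl2 were the other neighbours that were lower.

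Of 15 other imprinted genes, 7 were higher and 2 lower in PLK2null tumors, beside 24.3% and 15.3% of all genes tested. Whether these genes differ as a set was not tested. Zim1, a zinc finger gene beside Peg3, was 0 to 4481 (median, 28.5) in PLK2null and 0 to 42.8 (median, 6.56) in p53null tumors (2.54, SE 0.91, limma adjusted p = 0.0230). Peg10, a retrotransposon-derived gene, was 6.78 to 3830 (median, 418) and 0.82 to 1276 (median, 87.7) (2.30, SE 0.73, limma adjusted p = 0.0108). Dlk1, which like Igf2 is read from the paternal copy, was lower by -2.47 (SE 0.87, limma adjusted p = 0.0216). Its highest values were 26543 in p53null-10152 and 12794 in p53null-10151, 2 of the 3 tumors with both Igf2 and H19 above 10000. Without p53null-10152, p53null-10151 or p53null-10155 the Dlk1 call was lost (limma adjusted p up to 0.0669). The Peg10 and Dlk1 calls were each lost in 1 of 11 other settings (limma adjusted p = 0.194 and 0.127). Airn, the antisense RNA that overlaps Igf2r, was 32.2 to 687 (median, 284) in PLK2null and 26.8 to 206 (median, 92.5) in p53null tumors, higher by 1.66 (SE 0.35, limma adjusted p = 0.000175). Reads of Airn and Igf2r cannot be told apart where they overlap if strand was not used.

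Some markers of cell types passed the test between genotypes. Among all genes tested, 15.3% were lower and 24.3% higher in PLK2null tumors, and no list was tested as a set. Skeletal muscle genes were lower in PLK2null tumors in 4 of 5 tested, adipocyte and red blood cell genes in 2 of 5 each, and basal epithelial genes in 2 of 4. The muscle genes were uneven among p53null tumors, summing to 37146 in p53null-2153L and 25624 in p53null-7435. The median muscle sum was 90.2 in p53null and 35.4 in PLK2null tumors. Pericyte genes were higher in 1 of 5 and macrophage genes in 1 of 6, and 0 fibroblast, endothelial, T cell, B cell, luminal or milk genes passed limma. The basal genes Krt5, Krt14, Krt17 and Trp63 summed to 11.9 to 55186 (median, 4986) in PLK2null and 53.2 to 152115 (median, 26298) in p53null tumors. The part of these cell types in the called differences of Igf2r, Igfbp2 and Igfbp7 was not tested.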

How the data were processed

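RNA of 41 mouse mammary tumors was read as paired ends from mRNA libraries on Illumina HiSeq machines. The authors aligned reads to mm10 with STAR, obtained gene estimates from Salmon and deposited them as a linear signal divided by the upper quartile of each tumor. STAR 2.7.6a, Salmon 1.4.0 and Picard 2.22.4 are listed in the submitters' processing notes. The use of strand in counting is not given in the sources used here. Genotype came from the labels, and every column matched a tumor by name. Between 77.8 and 80.4% of nonzero values lay within 0.1 of a whole read, too few to recover reads, so no count model was run.

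Genes with a mean of at least 10 entered the test by limma 3.58.1 (R 4.3.3), on values to which 1 was added before log2 was taken, Benjamini-Hochberg adjusted over all 17208 genes with a threshold of 0.05. Fold changes on this scale understate those of low genes. On simulated data for the genotype comparison with 16746 genes tested, 67 of 91 genes changed by 1.5 on the log2 scale and 87 of 93 changed by 3 were called, with 8 unchanged genes called. Where tumors descend from the same growth, p-values may measure a spread that is smaller than that between separate tumors. Correlations are descriptions without a p.

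The 10 members, the gene lists and the marker lists were chosen with earlier results of these data known. Named genes were the members, at most 3 called genes of largest fold change per list, direct partners of the members, and the 5 genes most like Igf2, H19, Igf1 and Igfbp7 without predicted genes. All genes named near Igf2 in p53null-2153L were chosen after their values were seen. So were the Grb10, Igf2bp and Plag1 values in single tumors, and the pairs of close tumors. Positions and exon lengths came from GENCODE vM21 on GRCm38, the build that mm10 names, in which 95.0% of symbols matched a single gene. Promoters and microRNAs came from RefSeq, with 9 of 10 members matched. Alternatives were pseudocounts of 0.1 and 10, other filters, an intensity trend, TMM (trimmed mean of M values, unweighted) and quantile scaling, fewer tumors and each tumor left out. Python 3.11.15, numpy 2.4.6, pandas 2.3.3 and matplotlib 3.10.9 served other steps.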

Additional observations from a re-analysis of the deposited data

How the results depend on the processing

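H19, Igf1r, Igf2, Igf2r, Igfbp2, Igfbp3, Igfbp5 and Igfbp7 kept the direction of their fold change under every alternative run. Igf1, which did not pass the test, turned from 0.05 to -0.11 under TMM, -0.14 under quantile normalization, -0.41 with the 7 tumors numbered 77xx, -0.46 without PLK2null-732, PLK2null-733, PLK2null-743 and p53null-T11, -0.0094 without p53null-2153L and -0.64 without the 4 tumors highest in endothelial genes, an alternative chosen after seeing the data. Igfbp4 turned from 0.01 to -0.16 under TMM, -0.18 with the 77xx tumors, -0.23 without that set and -0.24 without the 4 endothelial tumors. With 1 tumor left out at a time, Igf1 ran from -0.12 to 0.24 and Igfbp4 from -0.11 to 0.11.

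The 3 member calls became 1 under TMM, 1 without the set with p53null-T11, 1 without the 4 endothelial tumors, 0 with the 77xx tumors and 1 to 3 with 1 tumor left out (1 without p53null-10152, p53null-2331L or p53null-2396R). With the 77xx tumors, fewer samples entered, and the calls were 2942 of all genes (1972 higher, 970 lower) and 8 of the list genes against 22. In this setting the fold changes of Igf2r (0.34) and Igfbp7 (0.56) were also smaller than in the main test, and that of Igfbp2 (-2.31) was larger in size. The cause of these changes and of those in the other settings was not tested. The Spearman correlation of Igf2 and H19 lay between 0.26 and 0.43 without p53null-2153L or within a genotype, and at 0.46 in the 12 p53null tumors without p53null-2153L. No paired analysis was possible because the labels do not match tumors between the genotypes. Depth limits Igf2 in PLK2null-1986 alone among the members, and the smallest differences that 13 against 28 tumors can show are set by the spread between tumors.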

Other observations

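Some tumors stood apart in several genes of the IGF system at once. PLK2null-1964 had the highest Igf1r (8363), Irs2 (4982) and Pappa (5148) of all 41 tumors and the second highest Igfbp2 (20215) and Insr (24148). In p53null-10151, H19 (123216), Plag1 (3122), Cdkn1c (12544), Meg3 (11519.9) and Pappa2 (2737) were high together, and all but H19 were the highest of the 41 tumors. PLK2null-743, PLK2null-733 and PLK2null-732 had 11877 to 16829.5 of Stc1, an inhibitor of pappalysins, against a median of 313 over all tumors, beside their high Igfbp4. These tumors and genes were picked after their values were seen, and no test was made of them.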
